A study of Homo sapiens with 8 samples.

Results

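The mean response to diclofenac over a pair of leukaemia lines was measured as diclofenac minus DMSO on all 8 of 8 arrays of the study, 4 from cells given the drug and 4 from cells given its solvent, with the cell line as a block. The value tested for a gene is therefore the average of its change in HL-60, labelled promyelocytic leukaemia, and its change in THP-1, labelled monocytic leukaemia. Each line was grown in RPMI medium with fetal bovine serum and kept for 48 h with 100 µM diclofenac or with DMSO, and the 4 groups of line and treatment hold 2 arrays each, titled as biological replicates. Every array was kept by this rule, and the features were the 22215 non-control probe sets of an Affymetrix human array, of which 19064 carried 1 gene symbol and stood for 11963 genes. A gene's change with diclofenac is given here only where it had the same sign in both lines. The rule used the labels and no measured value. Each line is 1 established cell line, so the replicates sample cultures and not patients.

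Diclofenac is a non-steroidal anti-inflammatory drug that blocks the cyclooxygenases, the enzymes that start prostaglandin synthesis. Several programs could respond to it in myeloid leukaemia cells. Fatty acid receptors of the PPAR family switch on genes of lipid storage such as the droplet coat PLIN2. The transcription factor ATF4 is made when translation initiation is curbed by a lack of amino acids or by other stress, and it turns on amino acid transporters, amino acid synthesis and tRNA charging. AP-1, the JUN and FOS dimer named in the study's title, answers kinase signals and takes part in monocyte differentiation, whereas immature granulocytes are marked by the proteases of their primary granules.

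The deposited values were linear, from 0.1 to 39370.8, and 1 array stood apart. THP-1 DMSO replicate 2 had a median intensity of 241.2, whereas the other 7 arrays had 109.6 to 150.3. The median of bacterial control probe sets, which have no target in these samples, was 78 on it and 5.6 to 24.6 elsewhere. On this array 50.32% of probe sets exceeded the background of the array, taken as the 95th percentile of those controls, against 66.36% to 72.14% on the others. It correlated with its replicate at 0.898 across probe sets, and the other replicate pairs at 0.977 to 0.984. Leaving it out moves some printed changes by over 1.5 times, and for many of these, but not all, the value without it is given too. The markers of each label were mixed. MPO, a promyelocyte enzyme, was above background on 0 of 2 HL-60 and 1 of 2 THP-1 DMSO arrays. AZU1 and PRTN3, proteases of primary granules, were brighter in THP-1 by 2.47 and 1.66 log2 units. The monocyte receptor CD14 was above background on 1 of 2 THP-1 DMSO arrays and on 0 of 2 HL-60 ones. THP-1 minus HL-60 was 1.24 for CSF1R and 0.88 for FCGR1A, further monocyte receptors, but -0.99 for MEIS1, listed for the monocyte line. This difference was 0.28 for ELANE, 0.23 for MYC, -0.35 for CTSG and -0.15 for LYZ. FCGR1A read 47 on THP-1 DMSO replicate 1 and 254 on replicate 2, the array that stood apart. It was above background on 0 of 2 HL-60 DMSO arrays. Because the mean weights both lines equally, it would be the same if the names of the lines were exchanged.

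Few genes passed the test of a change shared by both lines. Of 22215 probe sets, 4 were higher with diclofenac (0.018%) and 0 were lower (0%) at a limma adjusted p under 0.05, against 730 and 658 at an unadjusted p under 0.05. The 4 were PLIN2, DUSP6, ANPEP and a probe set with no gene in the annotation used here. In this fit a difference between the lines' changes adds to the spread, so a gene passes only where both lines move alike. Each value averages over a culture, so a change in RNA per cell and a change in the share of cells that carry the transcript cannot be told apart.

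PLIN2, the coat protein of lipid droplets and a PPAR target, had the smallest p of the array. Its deposited intensity was 2645 and 2584 in HL-60 and 2626 and 2246 in THP-1 with DMSO. With diclofenac it read 7041 and 7635 in HL-60 and 7396 and 8348 in THP-1. All 4 treated arrays were above all 4 control arrays, and the lines had nearly the same level under either treatment. PLIN2 rose 2.74-fold (mean log2 change 1.45 ± 0.07, SE, n = 4 arrays per treatment, limma adjusted p = 6.78e-05), by 1.36 log2 units in HL-60 and 1.54 in THP-1. A dimmer probe set of PLIN2, above background on 4 of 4 DMSO and 2 of 4 diclofenac arrays, had a log2 change of -0.72 (adjusted p = 0.762), or -0.42 with THP-1 DMSO replicate 2 left out, opposite to the bright one.

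The region before the PLIN2 start site is shown because this gene led the response. It is 250 bases on the minus strand, RefSeq, GRCh38.p14, chr9:19127493-19127742, printed 5′ to 3′:
PLIN2: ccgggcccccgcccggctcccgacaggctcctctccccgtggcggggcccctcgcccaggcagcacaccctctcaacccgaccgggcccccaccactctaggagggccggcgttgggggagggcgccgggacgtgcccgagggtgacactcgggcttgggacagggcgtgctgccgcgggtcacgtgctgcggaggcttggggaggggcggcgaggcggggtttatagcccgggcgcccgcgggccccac
No letter of it is in capitals, because none of the 3 elements searched on both strands occurs in this window: the C/EBP-ATF element TGATGNAA, the AP-1 element TGANTCA and the antioxidant element TGACNNNGC. Of all 35116 promoters in the RefSeq table, 3.14% hold the first within these 250 bases, 6.57% the second and 10.9% the third. The windows of DUSP6 and ANPEP hold none of the 3 either.

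DUSP6, a phosphatase that switches off the kinase ERK and is itself induced by ERK signalling, rose 1.74-fold. Its intensity with DMSO was 1577 and 1645 in HL-60 and 647 and 737 in THP-1, and with diclofenac 2680.3 and 2779 in HL-60 and 1339 and 1360 in THP-1. Treated arrays were above control arrays within each line, but the treated THP-1 arrays stayed below the untreated HL-60 ones. The mean log2 change was 0.80 ± 0.08 (limma adjusted p = 0.0214), with 0.71 in HL-60 and 0.89 in THP-1, close to each other. Its other 2 probe sets were not alike in the lines. One had 0.23 in HL-60 against 1.59 in THP-1 (mean 0.91, adjusted p = 0.762), with overlap between the treatments and a mean of 0.52 when THP-1 DMSO replicate 2 was left out. The next had 0.41 against 1.56 (mean 0.98, 0.639). ANPEP, the surface aminopeptidase CD13 of myeloid cells, rose 2.78-fold. Its intensity was 601 and 586 in HL-60 and 534 and 445 in THP-1 with DMSO, and 2286 and 2174 in HL-60 and 1093 and 1029.9 in THP-1 with diclofenac. All treated arrays were above all control arrays, and the treated HL-60 arrays were the highest. The mean log2 change was 1.48 ± 0.17 (limma adjusted p = 0.0411), with 1.81 in HL-60 and 1.14 in THP-1. When THP-1 DMSO replicate 2 was left out, PLIN2 and DUSP6 kept adjusted p = 0.000399 and 0.0175, and ANPEP had 0.065. With each array centred on its median in place of quantile normalization, 0 probe sets passed, and with array pairs of a replicate number as a block only PLIN2 passed.

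**Figure D1:**
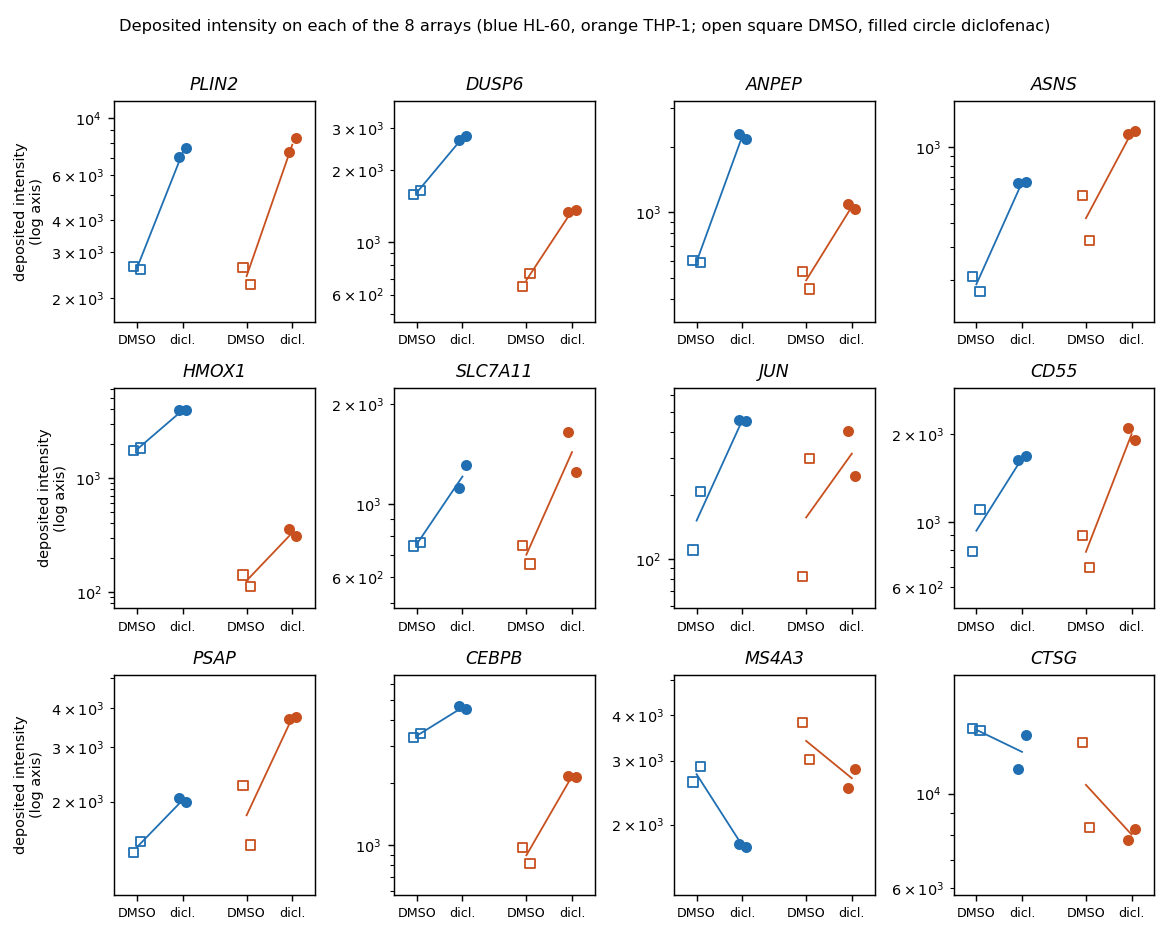
Deposited intensity (log axis) of 12 genes on each of the 8 arrays, with open squares for DMSO, filled circles for diclofenac, blue for HL-60 and orange for THP-1, and a line between the geometric means of each pair of arrays. PLIN2 reads 2246 to 2645 with DMSO and 7041 to 8348 with diclofenac, and MS4A3 and CTSG have lower means with diclofenac in both lines.

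The lines' changes were nearly unrelated over the whole array. Across 22215 probe sets the change in HL-60 and the change in THP-1 had a Pearson correlation of 0.066 and the same sign for 51.7% of probe sets. Over the 9204 probe sets above background on all 8 arrays these were 0.086 and 51.9%, and for the same probe sets with THP-1 DMSO replicate 2 left out they were -0.003 and 49.8%. Probe sets are not independent replicates, and the points share their arrays. PLIN2, ASNS, ANPEP, HMOX1 and JUN lie far out along the diagonal, above 1 log2 unit in both lines.

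**Figure D2:**
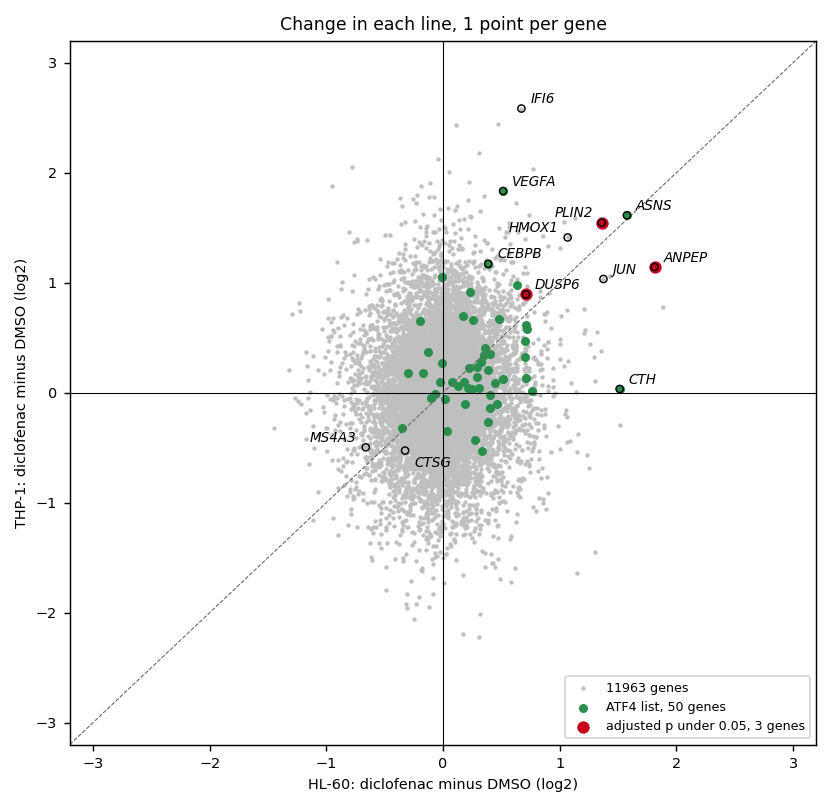
Change in HL-60 (x axis, log2) against change in THP-1 (y axis, log2) for 11963 genes, with 50 genes of the ATF4 list in green, the 3 genes past the threshold in red, named genes ringed, and equal changes on the dashed line. The cloud has little slope (Pearson r 0.066 over all probe sets), and a few genes at the upper right have similar values in both lines.

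Removing the difference between the lines from the spread raised the count. A fit of 4 group means with the average of the lines' contrasts called 22 probe sets (0.099%), 19 higher and 3 lower, all with the same sign in both lines. They belong to 16 named genes that were higher, 3 that were lower and 2 probe sets without a listed gene. The genes below were named after their values in this fit were seen. Among the higher were CEBPB, a C/EBP factor of macrophage genes (log2 0.78, adjusted p = 0.0125), and CD55, a complement inhibitor on the cell surface (1.02, 0.0434). PSAP, the precursor of the lysosomal saposins, had 0.69 (0.0427) and S100A11, a calcium-binding protein, 0.66 (0.0235). TNFRSF21, death receptor 6, had 1.40 (0.0366), but was above background on 2 of 4 DMSO arrays. ANXA1, BCL2A1 and GPNMB passed this fit although the HL-60 change was small, at 0.14, 0.20 and 0.02 against 1.48, 1.09 and 1.18 in THP-1.

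All 3 genes lower in the fit of group means had lower means in both lines. MS4A3, a membrane protein of granulocyte and basophil precursors, read 2618 and 2890.5 in HL-60 and 3822 and 3017 in THP-1 with DMSO, and 1770.2 and 1735 in HL-60 and 2529 and 2845 in THP-1 with diclofenac. Treated arrays lay below control arrays within each line. Its mean log2 change was -0.58 ± 0.07, with limma adjusted p = 0.0703 in the fit with line as a block and 0.0266 in the fit of group means. CTSG, the granule protease cathepsin G, had -0.43 ± 0.06 (0.134 and 0.0235). It read 14182 and 14030.1 in HL-60 and 13192 and 8334 in THP-1 with DMSO, and 11412 and 13745 in HL-60 and 7769 and 8282 in THP-1 with diclofenac. Treated arrays lay below control arrays in each line, by a narrow margin against THP-1 DMSO replicate 2. GOLGA8N, a member of a golgin family with many near copies, had -0.42 ± 0.06 (0.134 and 0.037), and its probe set may bind several of the copies.

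Weights that lower the part of noisy arrays gave a further view. THP-1 DMSO replicate 2 got a weight of 0.128 and the other arrays 0.757 to 1.917, and 15 probe sets passed, 13 higher and 2 lower. HMOX1, the heme-degrading oxygenase, read 1739 and 1834 in HL-60 and 141 and 112 in THP-1 with DMSO, and 3917 and 3976 in HL-60 and 355 and 309 in THP-1 with diclofenac. Treated arrays were above control arrays in each line, and the level was far lower in THP-1, where 1 of the 2 DMSO arrays was not above background. The mean log2 change was 1.24 ± 0.20 (adjusted p = 0.164 in the fit with line as a block), 1.06 with weights (0.00573) and 0.99 without THP-1 DMSO replicate 2 (0.00763). THBD, the anticoagulant receptor thrombomodulin, had a mean log2 change of 0.56 ± 0.08, 0.53 in HL-60 and 0.58 in THP-1 (0.134, and 0.0412 with weights). TXNIP, an inhibitor of thioredoxin that also responds to glucose, had 0.65 ± 0.10 (0.134, and 0.0251 with weights), and its other 2 probe sets had 0.64 and 0.54. A probe set of CD52, a small glycoprotein of leucocyte surfaces, had 1.70 (0.134, and 0.0273 with weights), and the one that stands for the gene had 1.12 (0.762), or 0.71 with THP-1 DMSO replicate 2 left out.

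Of the 38 lists, that of ATF4 and the amino acid response had the largest share of genes higher in both lines. Of its 54 genes 50 were measured, and 31 were higher in both lines, 3 lower in both and 16 of opposite sign. Among all 11963 genes, 25.3% were higher in both lines, against 62% of this list. None of the 50 passed the test of the mean. For 17 of them (34%) every diclofenac array exceeded every DMSO array within each line, and for 0 the reverse held, whereas among all genes 550 (4.6%) were separated upward and 504 (4.21%) downward. Of the list 42 of 50 genes were above background on all 8 arrays, against 5718 of 11963 genes, so these shares compare sets of unlike brightness. On the deposited scale 396 of all genes were separated upward and 624 downward, and after median centring 715 upward and 215 downward. The count upward was 18 of 50 on the deposited scale (3.31% of all genes), 15 with median centring (5.98%) and 19 with THP-1 DMSO replicate 2 left out (7.62%). The median log2 change of the list was 0.23 (0.225), with 0.30 in HL-60 and 0.16 in THP-1, beside -0.005 for all genes.

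ASNS, asparagine synthetase, had the largest change of the list. It read 208 and 173.2 in HL-60 and 556 and 321 in THP-1 with DMSO, and 651 and 654 in HL-60 and 1172 and 1217 in THP-1 with diclofenac. Treated arrays were above control arrays in each line, with the lower of the THP-1 controls on the array that stood apart. The mean log2 change was 1.59 ± 0.24, 3.02-fold, with 1.58 in HL-60 and 1.61 in THP-1 (limma adjusted p = 0.134). With THP-1 DMSO replicate 2 left out, the change in that line was 0.98 and the mean 1.34 (0.0246), and with array weights the mean was 1.43 (0.00419).

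Promoters of 3 members of the list are shown because each holds the C/EBP-ATF element, in capitals, and was separated upward in both lines after normalization. They were picked after their values were seen. ASNS and GOT1 lie on the minus strand and CHAC1 on the plus strand, and each is 250 bases before the start site, RefSeq, GRCh38.p14, at chr7:97872409-97872658, chr10:99430625-99430874 and chr15:40953221-40953470:
ASNS: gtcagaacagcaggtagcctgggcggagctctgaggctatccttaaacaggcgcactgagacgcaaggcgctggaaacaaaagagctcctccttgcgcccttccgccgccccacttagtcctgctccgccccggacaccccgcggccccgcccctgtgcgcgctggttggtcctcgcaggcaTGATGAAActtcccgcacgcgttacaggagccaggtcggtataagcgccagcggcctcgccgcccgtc
GOT1: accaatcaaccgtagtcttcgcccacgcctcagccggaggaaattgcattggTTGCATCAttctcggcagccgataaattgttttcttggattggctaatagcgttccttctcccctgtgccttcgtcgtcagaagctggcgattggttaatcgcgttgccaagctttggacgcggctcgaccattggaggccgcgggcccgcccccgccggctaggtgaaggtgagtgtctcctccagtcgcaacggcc
CHAC1: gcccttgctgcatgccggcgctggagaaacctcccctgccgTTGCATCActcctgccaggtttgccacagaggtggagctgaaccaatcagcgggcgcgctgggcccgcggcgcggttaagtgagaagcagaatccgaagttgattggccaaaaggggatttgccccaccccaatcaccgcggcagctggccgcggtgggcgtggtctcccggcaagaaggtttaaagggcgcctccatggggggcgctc
The element starts 68 bases before the ASNS start site as TGATGAAA on the sense strand. In GOT1 and CHAC1 it appears as its reverse complement TTGCATCA, 198 and 209 bases before the start. Of 42 list members with a promoter in the table, counting the first start site of a gene, 8 (19%) hold it, beside 3.19% of 27305 genes. The 8 are ATF3, CHAC1, ASNS, GOT1, BCAT1, AARS1, IARS1 and FGF21, and their mean log2 changes ran from -0.04 (FGF21) to 1.59 (ASNS), so a match did not go with 1 size of change. The list was compiled from known ATF4 targets, and a match is a description of letters.

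Regulators come first in the pathway. ATF4 itself read 3148 and 3165 in HL-60 and 5485 and 5386 in THP-1 with DMSO, and 4982 and 5964 in HL-60 and 6648 and 6576 in THP-1 with diclofenac. The deposited values were higher with diclofenac in both lines, and after quantile normalization those of THP-1 overlapped. Its mean log2 change was 0.42 ± 0.13 (adjusted p = 0.762), with 0.71 in HL-60 and 0.13 in THP-1. With THP-1 DMSO replicate 2 left out the ATF4 change in THP-1 was 0.35 and the mean 0.56. TRIB3, a pseudokinase that restrains ATF4, had 0.66 ± 0.14 (0.449), with 0.71 and 0.61. CHAC1, which degrades glutathione, had 0.58, was above background on 0 of 4 DMSO and 2 of 4 diclofenac arrays, and overlapped in THP-1 on the deposited scale. DDIT3, the CHOP factor, had opposite signs in the lines. Of 12 measured regulators 7 were higher in both lines, 0 lower in both and 5 opposite.

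Transporters and enzymes made up the middle of the list. SLC7A11, the cystine carrier, read 746 and 765 in HL-60 and 748 and 658 in THP-1 with DMSO, and 1119.7 and 1306 in HL-60 and 1647 and 1248 in THP-1 with diclofenac. All treated arrays exceeded all control arrays, and the lines had similar levels. Its mean log2 change was 0.81 ± 0.13 (adjusted p = 0.164), with 0.64 in HL-60 and 0.98 in THP-1. A further probe set had 0.86, and a dimmer one 0.04, or 0.21 with THP-1 DMSO replicate 2 left out. Of 10 measured transporters 7 were higher in both lines and 1, the glycine carrier SLC6A9, lower in both, though its THP-1 change was 0.33 with DMSO replicate 2 left out. SLC7A5 and SLC3A2, the chains of the large neutral amino acid carrier, had 0.58 and 0.45, and SLC1A5, a glutamine carrier, 0.26, each separated upward in both lines. Of 12 enzymes of amino acid and one-carbon metabolism 7 were higher in both lines, among them PSAT1 of serine synthesis (0.65), the transaminase GOT1 (0.58) and mitochondrial MTHFD2 (0.32). CTH, which makes cysteine, had 1.51 in HL-60 and 0.03 in THP-1, or 0.12 in THP-1 with DMSO replicate 2 left out.

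Synthetases load amino acids onto tRNA. Of 12 measured synthetases and exporters 9 were higher in both lines, 0 lower in both and 3 opposite, with a median of 0.20 (0.198) for the mean change, 0.35 in HL-60 and 0.12 in THP-1. WARS1 had 0.51, SARS1 0.38, GARS1 0.34 and EPRS1 0.14. These 4 of 12 (33.3%) were separated upward in both lines, beside 4.6% of all genes. All 12 were above background on all 8 arrays, against 5718 of 11963 genes. Among the secreted products VEGFA, an angiogenic factor, had 1.17, with 0.51 in HL-60 and 1.83 in THP-1. With DMSO replicate 2 left out the latter was 0.76 and the mean 0.61. The stress hormone FGF21 had -0.04, or -0.19 with that array left out, and GDF15 was above background on 0 of 8 arrays. Members of the list other than ASNS, SLC7A11, ATF4, TRIB3 and CEBPB were named after their values were seen.

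**Figure D3:**
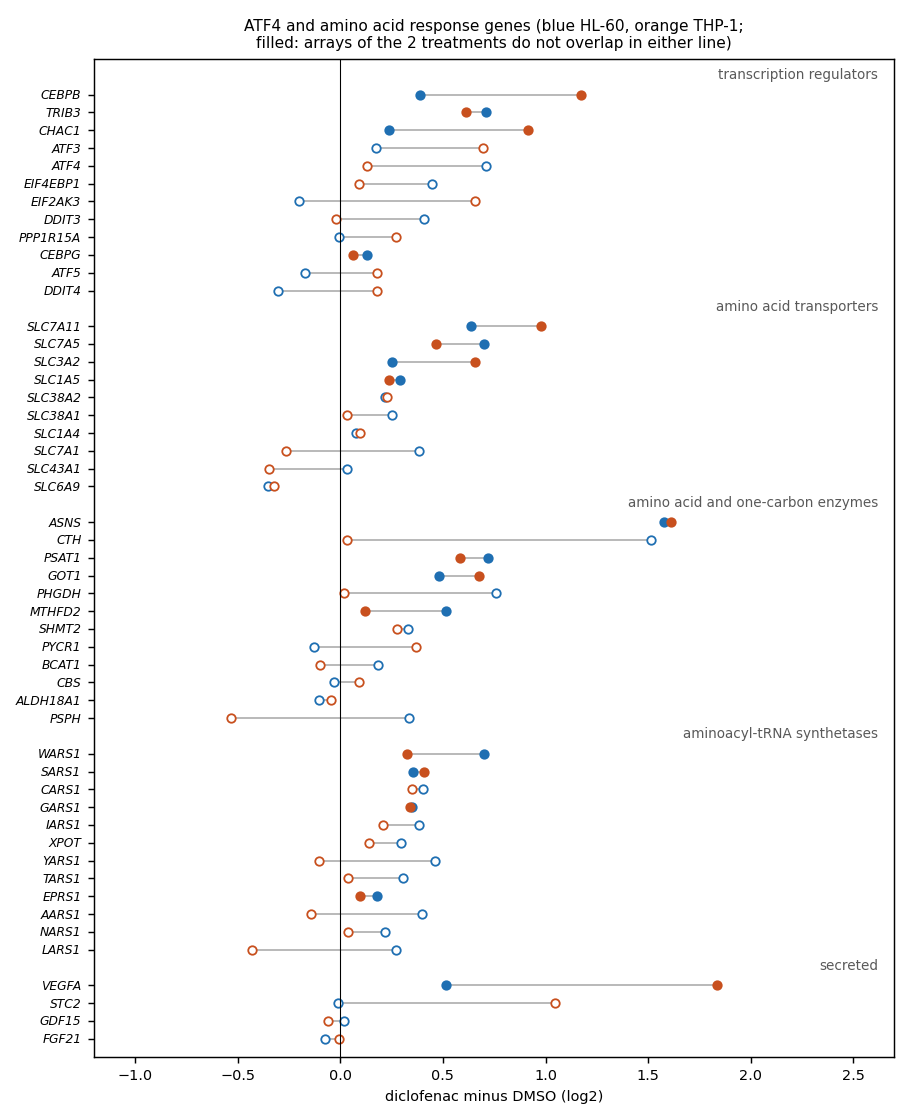
Log2 change in HL-60 (blue) and THP-1 (orange) for the 50 measured genes of the ATF4 list, ordered within 5 roles by the mean change, with filled points where treated and control arrays do not overlap in either line. ASNS has 1.58 and 1.61, most tRNA synthetases lie above 0 in both lines, and CTH and VEGFA have far apart points, at 1.51 and 0.03 and at 0.51 and 1.83.

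PLIN2 belongs to the list of PPAR targets and genes of lipid droplets. Of 30 measured genes 14 were higher in both lines, 7 lower in both and 9 opposite. PLIN2 was the 1 member that passed the test, beside 3 of all 11963 genes. Of the 30 genes 7 (23.3%) were separated upward and 1 (3.33%) downward, beside 4.6% and 4.21% of all genes. The median log2 change of the list was 0.14 (0.136) and was 0.04 without THP-1 DMSO replicate 2. The fatty acid binding protein FABP4 had 1.33, with 1.88 in HL-60 and 0.78 in THP-1, but was above background on 2 of 4 DMSO arrays. The fatty acid receptor CD36 had 0.64. PPARD, a PPAR receptor, had 0.73, or 0.40 with THP-1 DMSO replicate 2 left out. Against these, the droplet protein HILPDA had -0.43 and was separated downward in both lines, and the kinase PDK4, a usual PPAR target, had -0.38, or -0.58 with that array left out. PDK4 was dim, and above background on 2 of 4 DMSO arrays. These 5 members were named after their values were seen. Of 22 measured genes of cholesterol synthesis and uptake 9 were higher in both lines and 2 lower, with a median of 0.08 and 0 separated in either direction. Among 9 apolipoproteins and LXR targets 4 were higher in both lines and 1 lower. PLTP, which moves phospholipids between lipoproteins, had 0.54 ± 0.15 (adjusted p = 0.669), and APOC1 0.57 ± 0.24 (0.762). APOC1 was below background on every HL-60 array. Its other probe set had -0.26 in HL-60 and 1.27 in THP-1, with a mean of 0.51, or 0.05 with THP-1 DMSO replicate 2 left out.

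All 3 JUN subunits of AP-1 had positive changes in both lines, against 1 of 4 FOS subunits and 1 of 6 partners. JUN read 110.2 and 209.5 in HL-60 and 83 and 299.5 in THP-1 with DMSO, and 458 and 452 in HL-60 and 405 and 247 in THP-1 with diclofenac. The THP-1 arrays overlapped on the deposited scale, with the highest control on the array that stood apart, and separated after quantile normalization. JUN had a mean log2 change of 1.20 ± 0.27 (adjusted p = 0.482), with 1.37 in HL-60 and 1.03 in THP-1, and 2 of its other probe sets had 0.88 and 0.56, the former 0.49 with THP-1 DMSO replicate 2 left out. A further one, above background on 0 of 4 DMSO and 4 of 4 diclofenac arrays, was at least 1.69-fold higher, the treated mean set against the lowest signal above background on each control array. JUND had 0.30 ± 0.08 (0.639), with 0.31 and 0.28. FOS read 185 and 139 in HL-60 and 94 and 43 in THP-1 with DMSO, and 162 and 192 in HL-60 and 328.5 and 294 in THP-1 with diclofenac. Its mean log2 change was 1.07 ± 0.42 (0.762), with 0.22 in HL-60 and 1.92 in THP-1, and with THP-1 DMSO replicate 2 left out the mean was 0.61 and the THP-1 change 1.20. Of 13 measured AP-1 genes 5 were higher in both lines, 0 lower in both and 8 opposite, and the median was 0.29, with 0.04 in HL-60 and 0.59 in THP-1. With THP-1 DMSO replicate 2 left out, the median was 0.11 and that of THP-1 0.34.

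DUSP6 belongs to the list of immediate early and MAPK feedback genes. Of 33 measured genes 11 were higher in both lines, 2 lower in both and 20 opposite. DUSP6 was the 1 member that passed the test, beside 3 of all 11963 genes. The median of the list was 0.18, or 0.12 with THP-1 DMSO replicate 2 left out, with -0.06 in HL-60 and 0.42 in THP-1. MYC, the growth factor-induced transcription factor, had -0.14 ± 0.08 (adjusted p = 0.762) and 0.21 with median centring. In the NF-kB and inflammatory cytokine list 13 of 32 were higher in both lines, 3 lower in both and 16 opposite, with a median of 0.30 that was near 0 in HL-60 (0.005) and 0.50 in THP-1. CCL2, a monocyte chemokine, read 3000 and 2683 in HL-60 with DMSO and 3987 and 4888 with diclofenac, whereas in THP-1 it read 2.6 and 43 with DMSO and 69 and 147 with diclofenac. It was above background on 2 of 4 DMSO and 4 of 4 diclofenac arrays, and its mean log2 change was 1.04 ± 0.23 (0.5). IL1B had opposite signs in the lines.

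Interferons switch on antiviral genes in most cells. Of 35 measured genes 18 were higher in both lines, 3 lower in both and 14 opposite, and 9 (25.7%) were separated upward and 0 downward, beside 4.6% and 4.21% of all genes. On the deposited scale 6 were separated upward (3.31% of all genes), with median centring 9 (5.98%), and with THP-1 DMSO replicate 2 left out 11 (7.62%). IFI6, a mitochondrial interferon-induced protein, read 698 and 770.2 in HL-60 and 188 and 131 in THP-1 with DMSO, and 1282 and 1131 in HL-60 and 981 and 1045 in THP-1 with diclofenac. Treated arrays were above control arrays in each line, further apart in THP-1. On the log2 scale its mean change was 1.63 ± 0.39 (adjusted p = 0.567), with 0.67 in HL-60 and 2.58 in THP-1. BST2, which tethers viruses to the cell, had 0.34 ± 0.09 (0.639), with 0.24 and 0.44. Of its 10 regulators 7 were higher in both lines and 0 lower, and of its 25 effectors 11 and 3.

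Markers of monocytes and of immature granulocytes bear on the differentiation that the study's title names. Of 37 measured monocyte and macrophage genes 16 were higher in both lines, 2 lower in both and 19 opposite, and 6 (16.2%) were separated upward, beside 4.6% of all genes. The median was 0.22, with 0.03 in HL-60 and 0.41 in THP-1. CEBPB read 3299 and 3445 in HL-60 and 976 and 816 in THP-1 with DMSO, and 4691 and 4547 in HL-60 and 2163 and 2136 in THP-1 with diclofenac. Over both lines the log2 change was 0.78 ± 0.15 (adjusted p = 0.302), with 0.39 in HL-60 and 1.17 in THP-1. CD14, the lipopolysaccharide co-receptor of monocytes, read 7 and 4 in HL-60 and 56 and 45 in THP-1 with DMSO, and 3 and 29 in HL-60 and 333 and 310.5 in THP-1 with diclofenac. It was above background on 1 of 4 DMSO and 2 of 4 diclofenac arrays, and its mean log2 change of 1.25 ± 0.40 (0.762) averages 0.31 in HL-60 with 2.18 in THP-1. CHI3L1, a secreted macrophage and neutrophil glycoprotein, had 0.24 ± 0.07 (0.684) and was separated upward in both lines. A further CHI3L1 probe set, nearly as bright, had 0.11, with 0.01 in HL-60 and 0.21 in THP-1, and was not separated in both lines.

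Of 19 measured primary granule and promyelocyte genes 7 (36.8%) were lower in both lines, 3 higher in both and 9 opposite. Among all genes 26.7% were lower in both lines. Separated downward in both lines were 4 of 19 (21.1%), CTSG, MS4A3, the protease ELANE (-0.15) and the progenitor factor MYB (-0.21), beside 4.21% of all genes. Separated upward were 2 of 19 (10.5%), beside 4.6% of all genes. On the deposited scale 2 were separated downward and 2 upward (10.5% each), beside 5.22% and 3.31% of all genes. ELANE and MYB were named after their values were seen. With median centring the count downward was 0 and the count upward 2. The median of the list relative to all genes was -0.07 after quantile normalization, -0.115 with THP-1 DMSO replicate 2 left out and 0.10 with median centring. Relative to all genes, the deposited scale gives the same value as centring. The mature neutrophil list had 5 of 21 higher in both lines and 4 lower in both. ANPEP was its 1 member past the test, beside 3 of all 11963 genes. Granule proteins of later stages had a median of -0.05, or -0.08 with THP-1 DMSO replicate 2 left out.

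Lysosomal genes were higher in both lines more often than lower. Of 37 measured lysosome and autophagy genes 18 were higher in both lines, 3 lower in both and 16 opposite, and 9 (24.3%) were separated upward and 0 downward, beside 4.6% and 4.21% of all genes. On the deposited scale the count upward was 10 (3.31% of all genes), with median centring 15 (5.98%), and with THP-1 DMSO replicate 2 left out 11 (7.62%). The list had 34 of 37 genes above background on all 8 arrays, against 5718 of 11963 genes. Of 18 hydrolases and their cofactors 11 were higher in both lines and 0 lower in both. PSAP read 1370.1 and 1487 in HL-60 and 2250.1 and 1450.5 in THP-1 with DMSO, and 2055 and 1992 in HL-60 and 3699 and 3753 in THP-1 with diclofenac. Treated arrays were above control arrays in each line. Averaged over the lines, its log2 change was 0.69 ± 0.11 (adjusted p = 0.164), with 0.47 in HL-60 and 0.92 in THP-1, and its other probe set had 0.61. The protease CTSH had 0.37 ± 0.09 (0.624). CTSD and CTSB, further lysosomal proteases, had 0.57 and 0.54, and TFEB, the factor that drives lysosomal genes, 0.69. With THP-1 DMSO replicate 2 left out CTSD had 0.36 and TFEB 0.30. These 3 were named after their values were seen.

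Annexins and S100 proteins bind calcium and membranes, and several are abundant in mature myeloid cells. Of 16 measured genes 8 were higher in both lines, 1 lower in both and 7 opposite, and 4 (25%) were separated upward, beside 4.6% of all genes. S100A11 read 6481 and 6840.1 in HL-60 and 5328 and 4292 in THP-1 with DMSO, and 7939 and 10821 in HL-60 and 10572 and 10753 in THP-1 with diclofenac. All treated arrays were above all control arrays. The mean change on the log2 scale was 0.66 ± 0.12 (adjusted p = 0.276), with 0.36 in HL-60 and 0.96 in THP-1. ANXA1, annexin A1, read 1772 and 1869 in HL-60 and 666 and 721 in THP-1 with DMSO, and 2059 and 2080 in HL-60 and 2143 and 2030.3 in THP-1 with diclofenac. Its mean change of 0.81 ± 0.23 (0.672) averages 0.14 in HL-60 with 1.48 in THP-1, and with diclofenac the lines had similar levels.

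NRF2 switches on antioxidant genes when electrophiles modify its inhibitor. Of 29 measured targets 8 were higher in both lines, 5 lower in both and 16 opposite, with a median of 0.07, and 3 (10.3%) were separated upward, beside 4.6% of all genes. The 27.6% higher in both lines is near the 25.3% of all genes. HMOX1 and SLC7A11 also stand in the heme and ATF4 lists. In heme and iron handling 7 of 17 were higher in both lines and 2 lower, and CPOX, an enzyme of heme synthesis, had -0.41 ± 0.14 (adjusted p = 0.762) and was separated downward, with -0.26 when THP-1 DMSO replicate 2 was left out. Metallothioneins and zinc export, which respond to free zinc, had 5 of 9 higher in both lines, 0 lower in both and 3 (33.3%) separated upward, beside 25.3% higher in both and 4.6% separated upward among all genes. SLC30A1, the zinc exporter of the plasma membrane, had 0.48 ± 0.11 (0.482), with 0.60 in HL-60 and 0.36 in THP-1. With DMSO replicate 2 left out its THP-1 change was 0.22. MT1H had 0.39 ± 0.11 (0.639), though metallothioneins are near-identical in sequence and their probe sets may share targets.

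Genes of cell division were lower in both lines more often than higher after quantile normalization. Of 31 measured genes of DNA replication and S phase 15 (48.4%) were lower in both lines, 1 higher in both and 15 opposite. Among all genes 26.7% were lower in both lines. Of the 31 genes 5 (16.1%) were separated downward, beside 4.21% of all genes. LIG1, the ligase that joins lagging-strand fragments, read 480.3 and 525 in HL-60 and 773 and 711 in THP-1 with DMSO, and 284 and 322 in HL-60 and 497 and 581 in THP-1 with diclofenac. Treated arrays were below control arrays in each line. On the log2 scale its mean change was -0.48 ± 0.13 (adjusted p = 0.658). In mitosis 14 of 33 were lower in both lines and 1 higher, and CENPE, a kinetochore motor, had -0.45 ± 0.12 (0.639). In the proteasome 11 of 25 were lower in both lines and 3 higher, and the subunits PSMD1 and PSMD2 had -0.34 ± 0.12 and -0.27 ± 0.07. These directions did not hold under every scaling. Relative to all genes, the median log2 changes of replication, mitosis and proteasome were -0.09, -0.06 and -0.04 after quantile normalization and 0.07, 0.10 and 0.19 with median centring, and with centring 0 of their genes were separated downward. With THP-1 DMSO replicate 2 left out these medians were -0.104, -0.097 and -0.056.

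Arrest and death genes bear on the apoptosis in the study's title. In the GADD45 and p53 list 7 of 19 were higher in both lines, 2 lower in both and 10 opposite, and the median was 0.11, or -0.07 without THP-1 DMSO replicate 2. PMAIP1, the BH3-only protein NOXA, had 0.42 ± 0.10 (adjusted p = 0.6), with 0.47 in HL-60 and 0.38 in THP-1, and its other probe set 0.61. TNFRSF10B, the TRAIL receptor DR5, had 0.74 ± 0.35 (0.762), which was 0.30 without THP-1 DMSO replicate 2. CDKN1A, the cell cycle inhibitor p21, had 0.20 ± 0.17 (0.768), and GADD45A 0.18 ± 0.28 (0.854), or 0.47 with that array left out. TNFRSF21 read 852 and 951 in HL-60 and 15 and 98 in THP-1 with DMSO, and 1579 and 1587 in HL-60 and 330.2 and 224 in THP-1 with diclofenac. Its mean log2 change of 1.40 ± 0.26 had adjusted p = 0.285 with line as a block. Of 23 pro-apoptotic genes 9 were higher in both lines and 2 lower in both, and of 9 anti-apoptotic genes 3 and 2. BCL2A1, an anti-apoptotic BCL2 relative, had 0.64 ± 0.17 (0.639), and BCL2 -0.21 ± 0.16 (0.764), with 3 other BCL2 probe sets above 0, at 0.35, 0.50 and 0.03. With THP-1 DMSO replicate 2 left out these 3 probe sets had 0.33, 0.07 and 0.20. The polyamine-degrading enzyme SAT1 had 0.63 ± 0.14 (0.479), with 0.33 and 0.94 in the lines and its other probe sets at 0.77 and 1.32. In Wnt and catenin genes 7 of 20 were higher in both lines and 3 lower, JUP, gamma-catenin, had 0.53 ± 0.27 (0.762), or 0.30 with THP-1 DMSO replicate 2 left out, and beta-catenin CTNNB1 had opposite signs in the lines.

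Diclofenac acts on the prostaglandin pathway. Of 24 measured prostaglandin and leukotriene genes 3 were higher in both lines, 4 lower in both and 17 opposite, with a median of 0.02. The cyclooxygenases PTGS1 and PTGS2 had opposite signs in the lines. ALOX5AP, which presents arachidonic acid to 5-lipoxygenase, read 4591 and 4610.1 in HL-60 and 3860.3 and 2219 in THP-1 with DMSO, and 5651 and 5890 in HL-60 and 6483 and 6692 in THP-1 with diclofenac. All treated arrays were above all control arrays, and its mean log2 change was 0.64 ± 0.16 (adjusted p = 0.607). PTGER4, a prostaglandin E2 receptor, had 0.35 ± 0.12 (0.762).

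**Figure D4:**
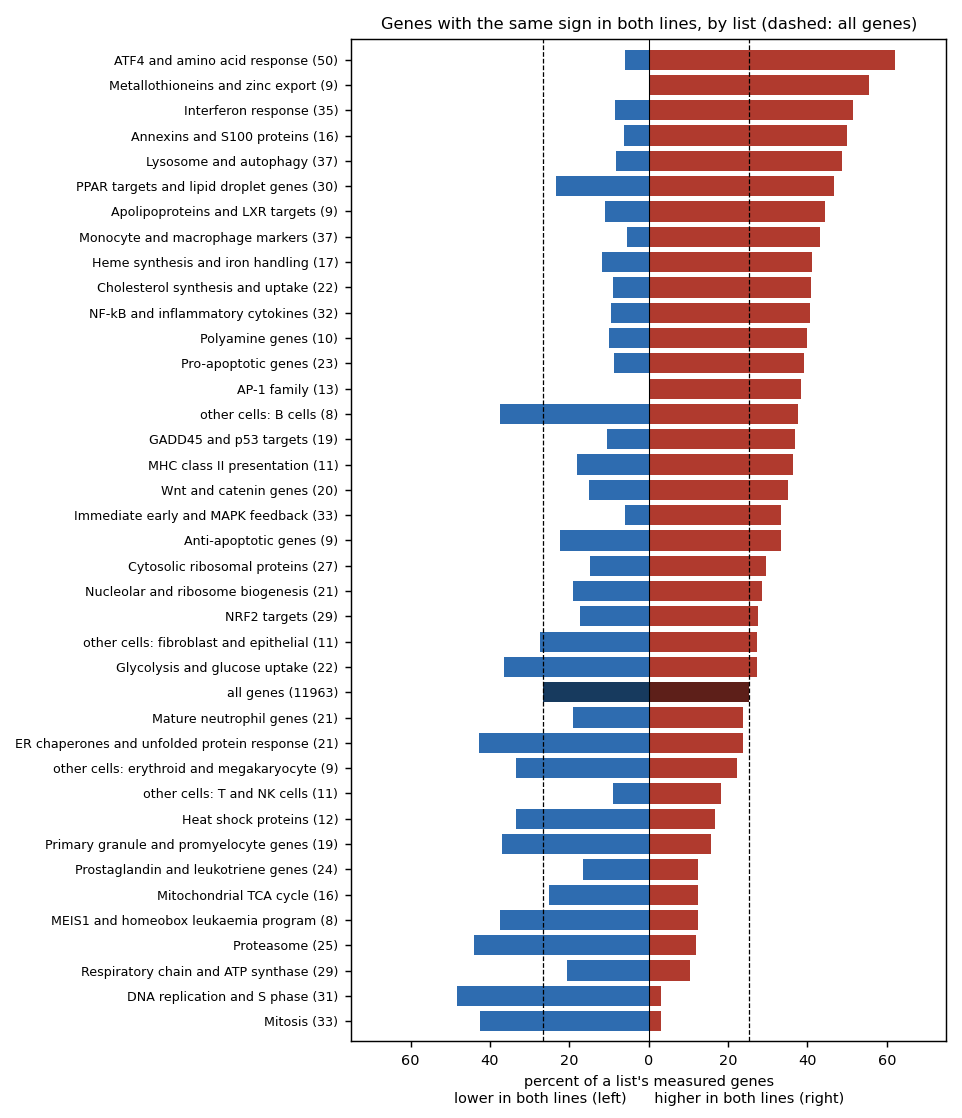
Percent of the measured genes of each list that were higher in both lines (red, right) or lower in both lines (blue, left), with the number of measured genes in parentheses and dashed lines at the shares of all genes. The ATF4 list reaches 62% to the right against 25.3% of all genes, and DNA replication and mitosis have 1 gene each to the right.

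Basal machinery and other cell types served as further comparisons. Among 27 cytosolic ribosomal protein genes 8 were higher in both lines and 4 lower, with a median of 0.01 (0.055 with THP-1 DMSO replicate 2 left out), and among 29 genes of the respiratory chain 3 and 6, with a median of -0.02 (0.002 with that array left out). The TCA cycle list had 2 of 16 higher in both lines and 4 lower, glycolysis 6 and 8 of 22, endoplasmic reticulum chaperones 5 and 9 of 21, heat shock proteins 2 and 4 of 12, nucleolar genes 6 and 4 of 21, and MHC class II genes 4 and 2 of 11. Within glycolysis the glucose carriers SLC2A1 and SLC2A3 had -0.56 ± 0.24 and 0.80 ± 0.35, or -0.27 and 0.39 with THP-1 DMSO replicate 2 left out. Of 11 T and NK cell markers 2 were higher in both lines and 1 lower, of 8 B cell markers 3 and 3, of 9 erythroid and megakaryocyte markers 2 and 3, and of 11 fibroblast and epithelial markers 3 and 3. Among them NKG7, a granule protein of lymphocytes, was bright in HL-60, with 2833 and 3292 under DMSO and 4071 and 3995 under diclofenac. COL1A1, PF4 and GATA1 stayed below 350 on every array, whereas the B cell markers PAX5 and MS4A1 did not. PAX5 read up to 557, in HL-60, and MS4A1 up to 495, on THP-1 DMSO replicate 2. Both COL1A1 and PAX5 were above background on 4 of 4 DMSO and 4 of 4 diclofenac arrays.

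**Figure D5:**
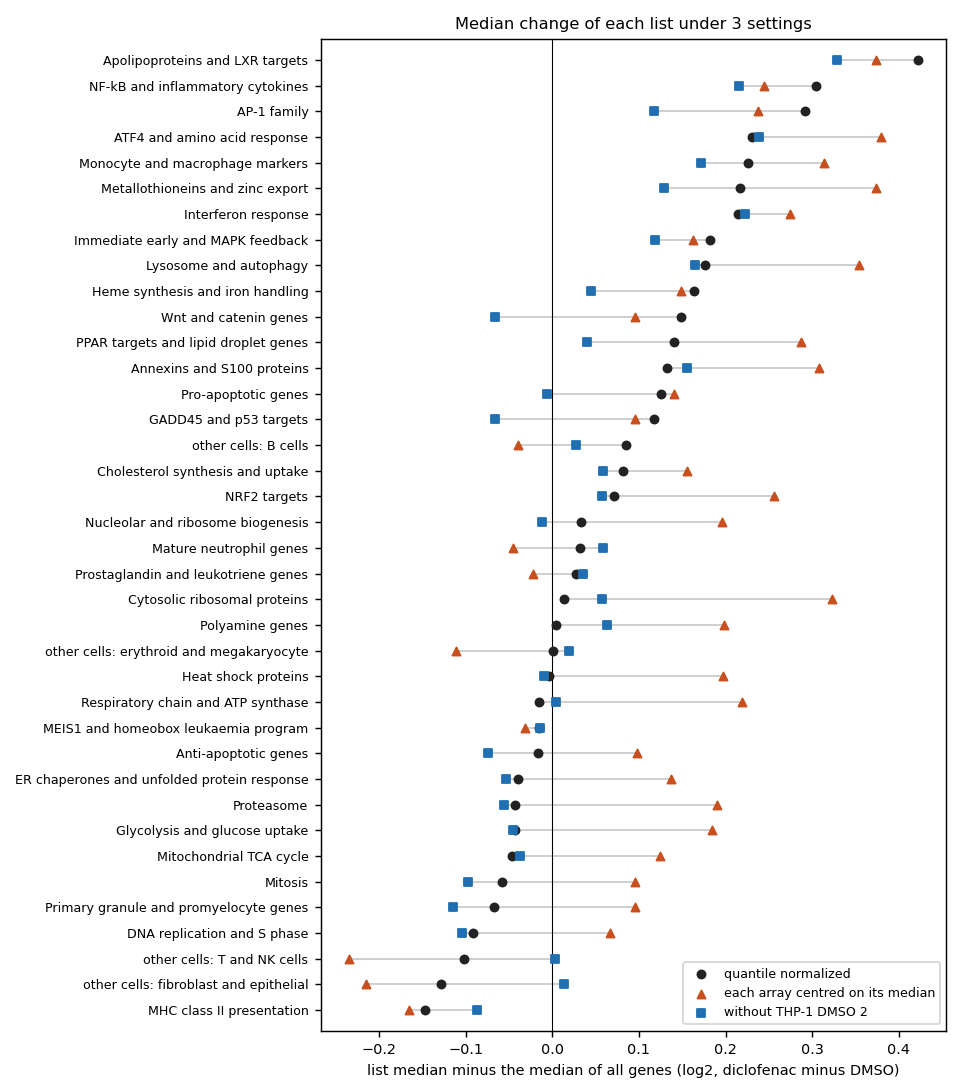
Median log2 change of each list minus the median of all genes (x axis) after quantile normalization (black circles), with each array centred on its median (orange triangles) and without THP-1 DMSO replicate 2 (blue squares). The ATF4 list lies at 0.23, 0.38 and 0.24, whereas DNA replication, mitosis, primary granule genes and the proteasome cross 0 with median centring.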

How the data were processed

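The authors' deposited intensities, 1 linear value per probe set and array, were used as given. The software behind them is not given in the sources used here. The mean of each array without its highest and lowest 2% of values was 500.1 to 500.2. Per the labels, biotinylated cRNA from total RNA was hybridised.

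The log2 of intensity plus 50 was quantile normalized, and 62 of 22277 probe sets were left out as controls. The annotation gave 1 symbol for 19064, several for 1043 and did not list 2108. The brightest probe set by mean log2 value stood for a gene. Probe sets with names ending in _x_at, which may bind several transcripts, were taken only where no other exists (460 genes). Those with names ending in _s_at were not set aside. limma 3.58.1 (R 4.3.3) fitted line and treatment with an intensity trend, 5 residual and 4.47 prior degrees of freedom. Benjamini-Hochberg adjustment ran over all 22215 probe sets, and errors are moderated standard errors. The limma adjusted p stands in parentheses after a change where no other name is given. Precision is limited by how many arrays there are. The labels title the replicates biological, without naming separate cultures, so the p-values measure the spread between these arrays. Replicate numbers were not used as pairs, because the labels do not say that they pair arrays. Same-numbered arrays did not deviate together (r -0.004 for HL-60, -0.008 for THP-1). The THP-1 value includes the array that stood apart, so it says little about pairing in that line.

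The genes and the 38 lists (894 genes, 779 measured) were chosen with earlier results of these data known. Named were genes past the threshold, up to 2 members per list with the smallest p where none passed, and 16 of 20 listed single genes, each with the same sign in both lines, the other 4 having opposite signs. The fit was checked on simulated data. Alternatives were other scalings, offsets of 16 or none, leaving out the dimmest 40%, no trend, group means, a replicate block, array weights, averaging the probe sets of a gene, and omitting each array in turn. Promoters came from RefSeq tables of GRCh38.p14. Figures were drawn with matplotlib in Python.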

Additional observations from a re-analysis of the deposited data

Results flagged for a closer look

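THP-1 DMSO replicate 2 lay far from the other 7 arrays on 3 measures. Its median intensity was 241.2, its bacterial controls had a median of 78, and 50.32% of its probe sets were above background. How often chance alone would mark 1 array on 3 related measures was not worked out. The cause was not tested.

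A probe set of MTDH, the metadherin gene, was the 1 probe set whose change differed between the lines after adjustment. The log2 change in HL-60 was -0.94 and that in THP-1 0.84, a difference of 1.79 ± 0.15 (SE, limma adjusted p = 0.0396), and 1 of 1 call. The brighter probe set that stands for MTDH had -0.08 and -0.03, so the probe sets of this gene disagree. Its opposite signs are given because the difference itself passed the test.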

How the results depend on the processing

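In the mean over both lines 4 probe sets were higher and 0 lower. The counts higher were 8 on the deposited scale, 0 with median centring (1111 probe sets at an unadjusted p under 0.05), 1 without an intensity trend, 1 with the replicate block, 13 with array weights, 19 with group means and 0 where the probe sets of a gene were averaged. The counts lower were 2 with the dimmest 40% left out, 3 with group means and 2 with array weights. Leaving out each array gave 1 to 6 higher and 0 lower, and only without THP-1 DMSO replicate 1 (5) or 2 (6) were there more than 2. The replicate block kept PLIN2, with DUSP6 and ANPEP at adjusted p = 0.205 and 0.192. PLIN2 passed under every alternative but centring (0.259) and the mean of its probe sets (0.737). Genes separated in both lines numbered 550 upward and 504 downward, with 215 downward after median centring. Leaving out THP-1 DMSO replicate 2 gave 911 and 822. The median change of all genes was -0.005, with -0.115 on the deposited scale and 0.143 with centring.

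Among 84 named genes 17 changed sign somewhere. With centring ATP5PO had 0.14, DLGAP5 0.067, DNAJA1 0.24, E2F1 0.145, FBL 0.087, GOLGA8N 0.006, HSP90AB1 0.29, IDH3A 0.15, IDH3B 0.14, LMO2 0.30, MYC 0.21, NDUFS3 0.12, PBX3 0.15, PSMD2 0.073 and SMS 0.12, all negative after quantile normalization. HSP90AB1 and LMO2 had 0.028 and 0.04 on the deposited scale, and LMO2 had 0.004 with weights and from -0.122 to 0.036 with each array left out. With the mean of probe sets BCL2 had 0.17, E2F1 0.075 and IDH3A 0.01. GADD45A had -0.053 to 0.472 with each array left out, the lowest without THP-1 DMSO replicate 1. The causes were not tested. Signal near background limits low genes: a change there is compressed by the offset of 50.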

Other observations

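CD55 and THBD, proteins of the cell surface, were named after their values were seen, and neither passed the test with line as a block (limma adjusted p = 0.134 for each). CD55 read 792 and 1101 in HL-60 and 896 and 697 in THP-1 with DMSO, and 1623 and 1674 in HL-60 and 2088 and 1902 in THP-1 with diclofenac. All treated arrays were above all control arrays, and a further CD55 probe set had 0.21 in HL-60 against 1.18 in THP-1. THBD read 475 and 519 in HL-60 and 1848.5 and 1512 in THP-1 with DMSO, and 728 and 709 in HL-60 and 2745.5 and 2779.5 in THP-1 with diclofenac. Treated arrays were above control arrays in each line, and a further THBD probe set had 0.24 against 0.63.

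TXNIP, also named after its values were seen, read 592 and 501 in HL-60 and 2105 and 1695 in THP-1 with DMSO, and 973 and 1019 in HL-60 and 2795 and 3062 in THP-1 with diclofenac (limma adjusted p = 0.134). Its treatments did not overlap in either line.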
